A study of Homo sapiens with 33 samples.

Results

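The 7 RNAs described here are abundant structural and nuclear noncoding RNAs of human cells: RN7SK, RN7SL1, RN7SL2, RMRP, RPPH1, MALAT1 and NEAT1. They were taken by gene symbol from a table of 26475 genes, and all 7 were present and passed the filter on low counts, which kept 14613 genes. RNA was sequenced from HEK293T, an established human embryonic kidney line that carries the SV40 large T antigen. The cells were transfected with a plasmid for a base editor or a control protein, which was translated together with EGFP, and, except in the GFP group, with a plasmid for a guide RNA, and GFP-positive cells were sorted 36 to 40 h later. There were 11 groups of 3 libraries each. SpACE, Target-AID, miniABEmax-V82G, ABEmax and nCas9 were each given with the HEKsite2 guide and with the RNF2 guide, and the GFP group had no guide. ABEmax and miniABEmax-V82G are adenine base editors, Target-AID is a cytosine base editor, and SpACE joins an adenine and a cytosine deaminase in a single editor. nCas9 is the Cas9 nickase without a deaminase, and nCas9 and GFP were the negative controls. All groups thus share transfection, GFP expression and sorting. The editors were expressed transiently from plasmids, and the labels do not say whether the 3 libraries of a group came from separate cultures, so p-values measure only the spread between these libraries, which may be technical. The count columns of SpACE carry UGI in their names, which the labels of those samples do not mention.

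Library totals lay between 6790209 and 11200406 counts. Genes associated with HEK293T summed to 539 to 765 CPM (counts per 1000000, on library sizes scaled by TMM, the trimmed mean of M-values), with all 8 of them detected and PAX2 at 0 in 3 libraries. Markers of liver lines summed to at most 3.39 CPM, of erythroid lines to at most 0.617 CPM and of blood cells to at most 2.66 CPM, with the fetal globin gene HBG1 at 0 in all 33 libraries, and mesenchymal markers summed to 6.87 to 13.1 CPM. The replicate 3 libraries of Target-AID stood apart in both guides: a chi-square statistic between replicates, per gene, was 9.46 to 19.7 for the pairs that include them and at most 4.80 for the other pairs within groups. The statistic was taken over all tested genes, the 7 RNAs among them, and genes with large counts can weigh heavily in it. It is thus not separate from the levels of the 7 RNAs. The tests of the 7 RNAs with Target-AID are given with and without these replicate 3 libraries. So are most counts of the gene lists with Target-AID and most fold changes of the genes named from them.

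RN7SK (7SK) is a nuclear RNA that, bound by the capping enzyme MEPCE and by LARP7, holds the elongation kinase P-TEFb inactive through HEXIM1 or HEXIM2, so that its release lets RNA polymerase II leave promoters. RN7SL1 and RN7SL2 encode 7SL, the RNA scaffold of the signal recognition particle, which stops the translation of secretory and membrane proteins until the ribosome reaches the endoplasmic reticulum. RMRP is the RNA of RNase MRP, which acts in ribosomal RNA processing, and RPPH1 is the catalytic RNA of RNase P, which trims the leader of tRNA precursors, and both enzymes share most of their proteins. These 5 short RNAs are made by RNA polymerase III. MALAT1 and NEAT1 are long RNAs made by RNA polymerase II from neighbouring genes. MALAT1 gathers in nuclear speckles, sites rich in splicing factors, while the long form of NEAT1 is the scaffold of paraspeckles, nuclear bodies that hold NONO and SFPQ. The 3′ ends of MALAT1 and of the long form of NEAT1 are known to lack a normal poly(A) tail. They are held by a triple helix between U-rich motifs and an A-rich end.

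The separate counts of both 7SL genes are limited by how alike these genes are. In GENCODE 29 on GRCh38, RN7SL1 and RN7SL2 are 98.7% identical over 299 aligned bases. The longest identical run is 205 bases, and a read that lies within it cannot be assigned to either gene by its sequence. Of all 50-base windows of RN7SL1, 84.4% were found at another GENCODE gene and 63.2% in RN7SL2, and for RN7SL2 these shares were 86.5% and 62.9%. For RN7SK, 77.1% of the windows were found at another gene, and for RMRP and RPPH1 0%. GENCODE gives 680 gene names of the RN7SL family and 294 of the RN7SK family, of which the count table holds 2 and 1, and how reads with several positions were counted is not given in the sources used here. The separate levels of RN7SL1 and RN7SL2, and the level of RN7SK, are uncertain to that extent.

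The sequences shown come from GENCODE 29 transcripts on GRCh38, printed as DNA from 5′ to 3′. The first 100 bases of RN7SK, at chr6:52995621-52995720 on the plus strand, are shown because HEXIM1 is known to bind paired GATC motifs in this 5′ part. Capitals mark each GATC.
RN7SK: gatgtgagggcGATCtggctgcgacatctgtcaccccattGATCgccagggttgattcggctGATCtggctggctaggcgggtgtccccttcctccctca
GATC, which reads the same on both strands, starts at positions 12, 41 and 63. Of 203519 GENCODE transcripts of at least 100 bases, 0.286% hold 3 or more GATC in their first 100 bases.

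The 3′ triple-helix stretches are shown for both long RNAs, with capitals for the U-rich motif nearer the end and for the A-rich end. The stretch of MALAT1 lies at chr11:65506041-65506116 and that of NEAT1 at chr11:65445460-65445540, both on the plus strand.
MALAT1: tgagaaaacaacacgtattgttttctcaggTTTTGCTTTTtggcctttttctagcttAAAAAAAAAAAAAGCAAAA
NEAT1: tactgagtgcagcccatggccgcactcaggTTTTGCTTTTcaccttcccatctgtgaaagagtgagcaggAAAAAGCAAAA
TTTTGCTTTT followed by AAAAAGCAAAA within 110 bases, searched on the transcript strand, was found in 9 of 206534 transcripts (0.00436%), from 3 of 57133 gene names, of which 2 are MALAT1 and NEAT1. From the first base of the U-rich motif to the last base of the A-rich end the distance was 46 bases in MALAT1 and 51 bases in NEAT1. The annotated NEAT1 transcript stops at the motif, while that of MALAT1 runs on for 353 bases.

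RMRP lies at chr9:35657751-35658018 and RPPH1 at chr14:20343075-20343407, both on the minus strand. RMRP starts 272 bases from the opposite-strand gene CCDC107 and RPPH1 175 bases from the opposite-strand gene PARP2. RN7SL1 lies within an intron of RPS29, on the opposite strand. MALAT1 spans chr11:65497762-65506469 and NEAT1 chr11:65422798-65445540, with transcripts of 8708 and 22743 bases. Other NEAT1 transcripts of 512 to 3524 bases share its counts, so the short and long forms cannot be separated, and the microRNA gene MIR612 lies within NEAT1. The library kit keeps strand, but the strand setting of the counting is not given in the sources used here.

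RN7SK had the highest mean count of all genes in the table, followed by RN7SL1, RMRP, RN7SL2 and RPPH1 at ranks 2, 3, 4 and 5, while MALAT1 ranked 99 and NEAT1 ranked 2501. The 7 RNAs together took 6.11 to 10.3% of all counts in a library, with a median of 8.53%. Per kilobase of transcript, mean levels were 100858 CPM per kb for RN7SK, 58423 for RN7SL1, 47636 for RMRP, 34172 for RN7SL2, 29711 for RPPH1, 95.2 for MALAT1 and 4.15 for NEAT1. The short RNAs, of 268 to 333 bases, thus stood at 29711 CPM per kb or more and the long RNAs, on these transcript lengths, at or below 95.2. The value of NEAT1 uses the transcript of 22743 bases. Shorter transcripts share its counts, so its level per kb may be higher. GC content was 58.2 to 64.6% in the short RNAs, 40.3% in MALAT1 and 44.1% in NEAT1.

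Mean levels of each RNA were compared across the 11 groups. The range of means and the overlap of groups were not computed over all genes, so they have no reference here. The highest group mean exceeded the lowest by 1.31 times for RN7SK, 1.39 for RN7SL2, 1.43 for RMRP, 1.48 for RN7SL1, 1.58 for MALAT1, 1.64 for NEAT1 and 1.66 for RPPH1. When groups were ordered by mean, neighbours overlapped in all 10 steps for 6 RNAs and in 9 of 10 for RN7SK, whose break fell between miniABEmax-V82G with RNF2 and ABEmax with RNF2.

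**Figure D1:**
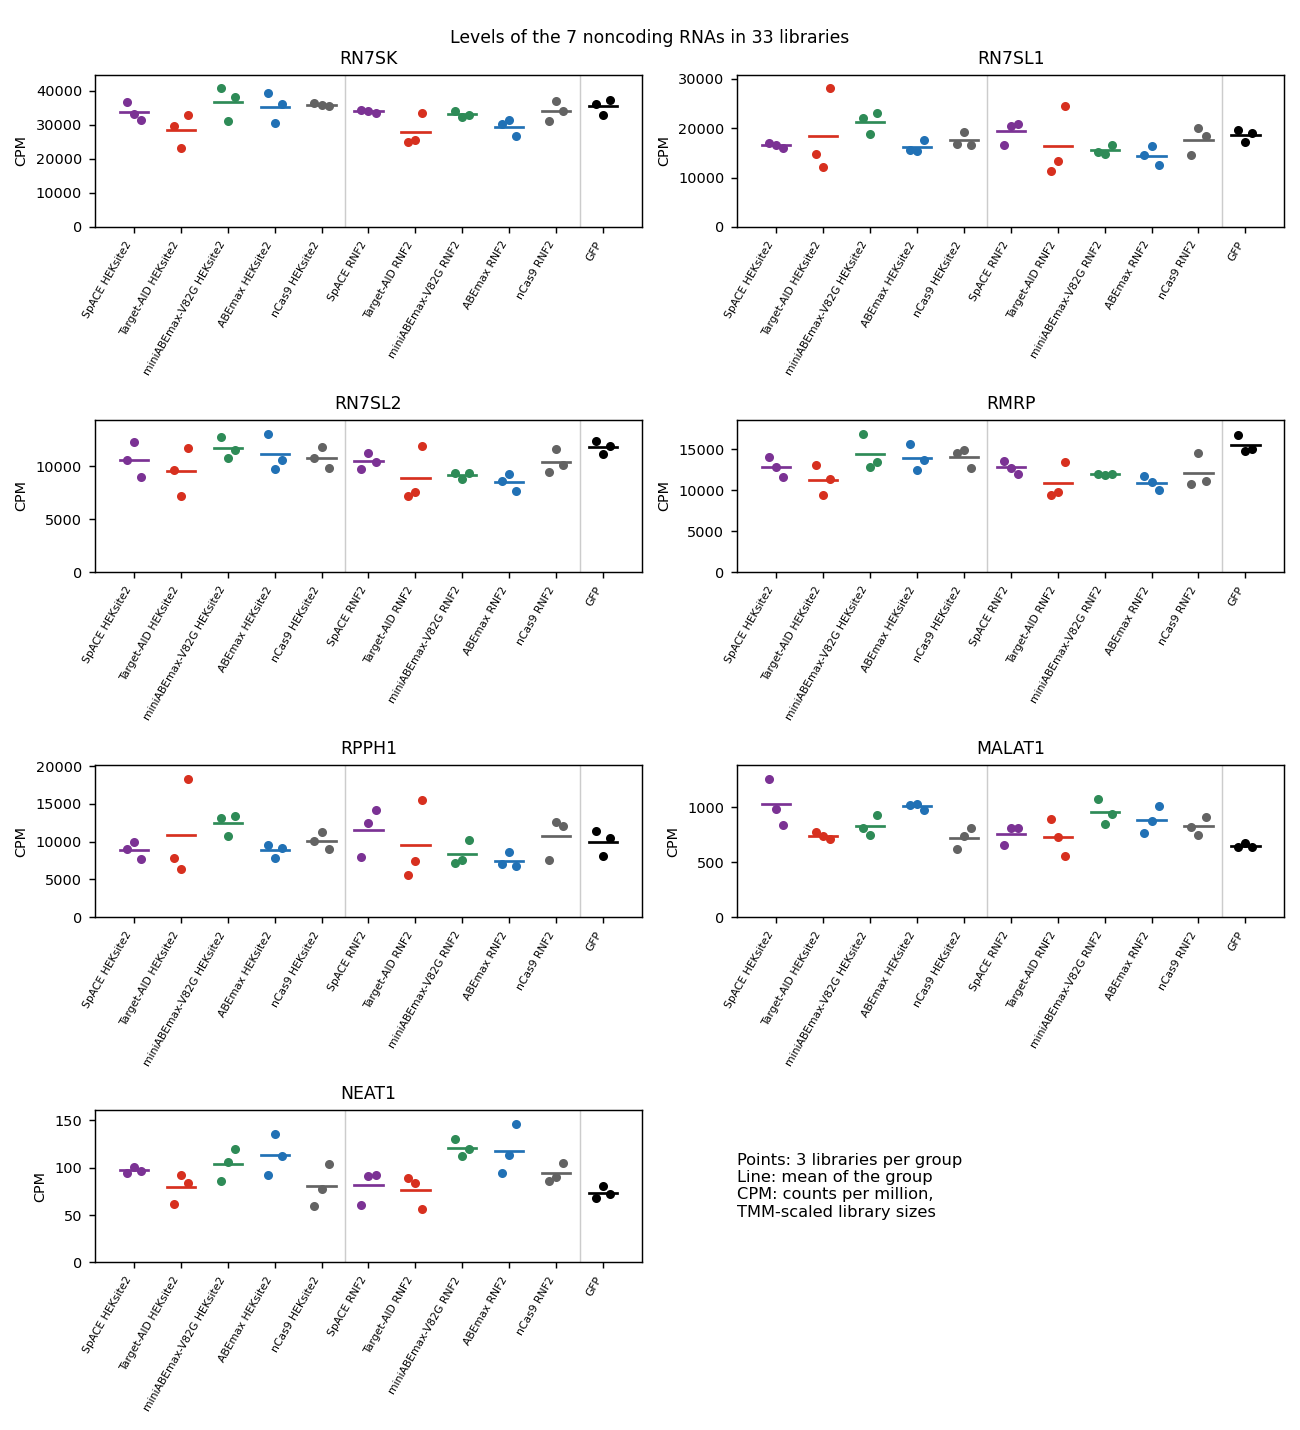
Level of each RNA in each library, in CPM on TMM-scaled library sizes, with 3 points per group and a line at the group mean; each panel has its own axis from 0. The replicate 3 points of Target-AID lie above the other replicates of their groups for RN7SK, RN7SL1, RN7SL2 and RPPH1, up to 28071 CPM for RN7SL1, and MALAT1 is highest with SpACE and HEKsite2, at a mean of 1026 CPM.

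For these RNAs other than NEAT1, replicates of a group differed more than for most genes at high levels. The within-group SD of log2 CPM was 0.15 for RN7SK, 0.17 for RMRP, 0.19 for MALAT1, 0.21 for RN7SL2, 0.27 for NEAT1, 0.29 for RN7SL1 and 0.41 for RPPH1. These SDs include the replicate 3 libraries of Target-AID, which were high for RPPH1 and RN7SL1. The median over all tested genes was 0.128, and over the 226 genes with a mean of at least 500 CPM it was 0.0772. NEAT1, at a mean of 94.4 CPM, is not among these 226 genes. Of all tested genes, 59.3% had a smaller SD than RN7SK, 78.8% than NEAT1 and 92.0% than RPPH1. Counting error at the lowest count of each RNA gives an SD of 0.00317 for RN7SK and 0.0651 for NEAT1 on the same scale, below the spread between replicates in each case.

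The comparison of each editor with nCas9 carrying the same guide sets a whole editor construct against the nickase. The constructs may differ by more than the deaminase. Changes were tested by edgeR's two-sided quasi-likelihood F-test with Benjamini-Hochberg adjustment over the 14613 genes, and an RNA is called changed at an adjusted p under 0.05. Levels are shares of each library, so less of an RNA per cell cannot be told apart from fewer cells that contain it or from more of other RNAs. The 4 editors of a guide share the same 3 nCas9 libraries. Over the 8 comparisons, 6 of 56 pairs of RNA and comparison were called: MALAT1 rose with ABEmax and with SpACE, both with HEKsite2, NEAT1 rose with ABEmax and HEKsite2, RN7SK fell with Target-AID in both guides, and RMRP fell with Target-AID and HEKsite2. No RNA was called for miniABEmax-V82G with either guide, where edgeR called 10.3% of all genes with HEKsite2 and 12.6% with RNF2, for ABEmax with RNF2 (11.2% of all genes), or for SpACE with RNF2 (14.7% of all genes). At an unadjusted p under 0.05, NEAT1 passed for miniABEmax-V82G with HEKsite2 and with RNF2, beside 24.3% and 26.3% of all genes, and RN7SL2 passed for ABEmax with RNF2, beside 25.7%. For SpACE with RNF2 0 RNAs passed, beside 27.8% of all genes. DESeq2 called 0 RNAs in these 4 comparisons. Without the filter on low counts, 4 RNAs were called for miniABEmax-V82G with HEKsite2, 5 for ABEmax with RNF2 and 3 for miniABEmax-V82G with RNF2. With only the compared groups in the fit, these counts were 2, 5 and 5, and SpACE with RNF2 had 0 under both alternatives. The shares of all genes called in these fits and by DESeq2 are not given here, so these counts have no reference.

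**Figure D2:**
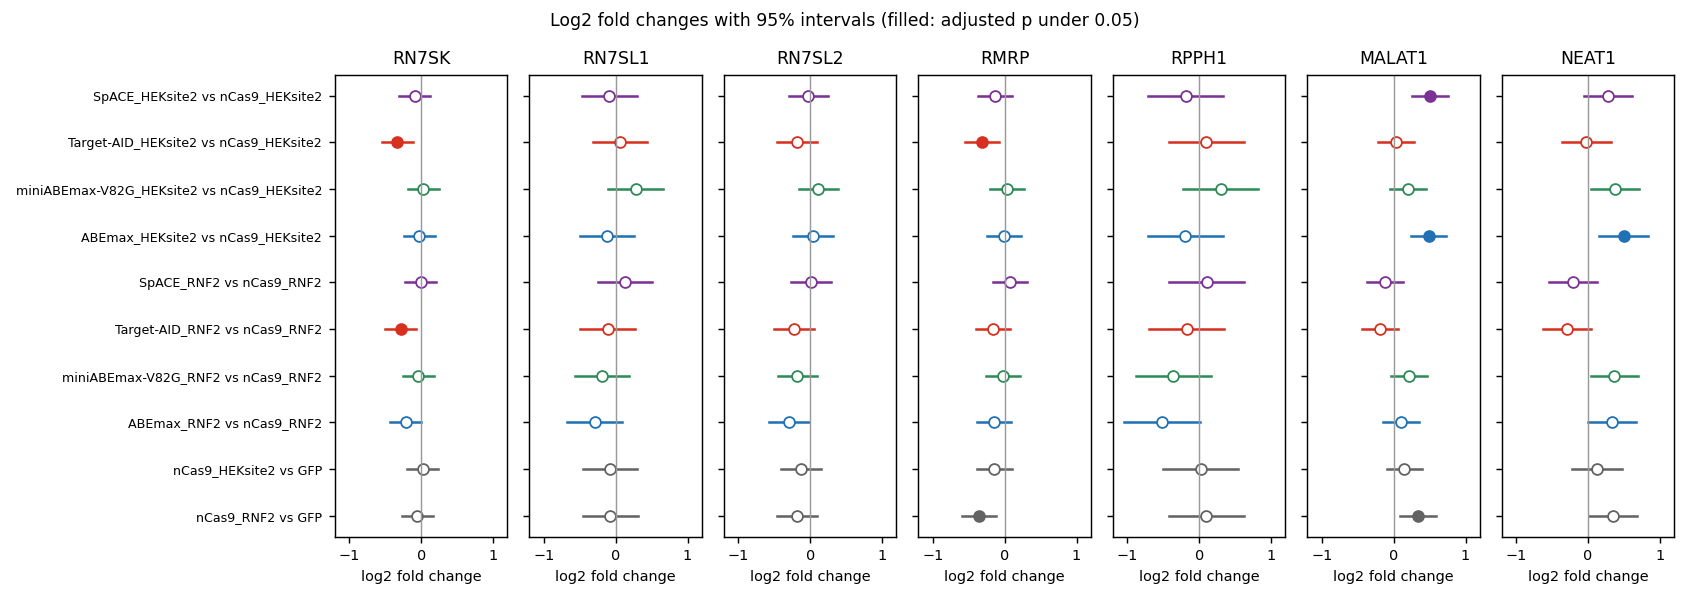
Log2 fold change of each RNA in 10 comparisons, with 95% intervals from the fit; filled points have an adjusted p under 0.05. The filled points are MALAT1 in 3 comparisons, RN7SK and RMRP in 2 each, and NEAT1 in 1, and most intervals of the short RNAs cross 0.

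RN7SK fell with Target-AID. Its levels were 29614, 23024 and 32859 CPM with Target-AID and HEKsite2, against 36399, 35845 and 35492 CPM with nCas9 and HEKsite2. All 3 Target-AID libraries were below all 3 nCas9 libraries, and replicate 3 was the nearest to them. The log2 fold change was -0.33 (SE 0.11, adjusted p = 0.0116). RN7SK and RMRP were the 2 RNAs called in this comparison, in which edgeR called 40.6% of all genes. With the RNF2 guide RN7SK stood at 25039, 25470 and 33441 CPM with Target-AID, against 31167, 36880 and 34115 CPM with nCas9. Replicates 1 and 2 of Target-AID lay below all nCas9 libraries and replicate 3 lay among them, for a log2 fold change of -0.28 (SE 0.11, adjusted p = 0.0364). RN7SK was the 1 RNA called there, beside 35.2% of all genes. The call with HEKsite2 was lost without replicate 2 of Target-AID (log2 fold change -0.20, adjusted p = 0.160) and in a fit of the compared groups alone, and the call with RNF2 was lost under 6 of 15 alternatives: DESeq2, the fit of the compared groups alone, and the removal of replicate 1 or 2 of Target-AID or replicate 2 or 3 of nCas9 (adjusted p up to 0.177).

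RMRP stood at 13046, 9384 and 11344 CPM with Target-AID and HEKsite2, against 14523, 14849 and 12737 CPM with nCas9. The groups overlapped, since replicate 1 of Target-AID was above replicate 3 of nCas9. The log2 fold change was -0.32 (SE 0.12, adjusted p = 0.0286), and this call was lost under 5 of 15 alternatives: DESeq2 and the removal of replicate 2 or 3 of Target-AID or replicate 1 or 2 of nCas9 (adjusted p up to 0.225). With RNF2, RMRP stood at 9362, 9722 and 13382 CPM with Target-AID, against 10754, 14518 and 11096 CPM with nCas9 (log2 fold change -0.16, adjusted p = 0.294).

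Replicate 3 of Target-AID was high for the other short RNAs in both guides. RPPH1 stood at 7819, 6421 and 18322 CPM with Target-AID and HEKsite2, against 10101, 11304 and 9023 CPM with nCas9. With RNF2 it stood at 5568, 7463 and 15515 CPM with Target-AID, against 7549, 12538 and 12033 CPM with nCas9. In both guides replicates 1 and 2 were below, and replicate 3 above, every nCas9 library of the same guide. RN7SL1 showed the same split, with 14738, 12225 and 28071 CPM for Target-AID and HEKsite2, against 16894, 19235 and 16694 CPM for nCas9, and with 11241, 13411 and 24539 CPM for Target-AID and RNF2, against 14672, 20099 and 18331 CPM for nCas9. RN7SL2 stood at 9581, 7208 and 11696 CPM with Target-AID and HEKsite2, against 10790, 11775 and 9781 CPM with nCas9. With RNF2, RN7SL2 stood at 7149, 7586 and 11882 CPM with Target-AID, against 9466, 11560 and 10056 CPM with nCas9. Replicates 1 and 2 of Target-AID were again below all nCas9 libraries of their guide, and replicate 3 was above all of them with RNF2 and among them with HEKsite2.

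Without replicate 3 of Target-AID in both guides, an alternative added after the data were seen, all 5 short RNAs were called lower in both guides. The libraries left out were picked by a statistic that includes these RNAs, so these calls are no separate support for a fall. In that fit edgeR called 39.7% of 14793 genes for HEKsite2 and 38.0% for RNF2, with 18.6% and 17.4% called lower. Averaged over guides the same 5 were called lower, beside 52.3% of all genes called and 25.0% called lower. RPPH1 changed most, at -0.51 (SE 0.17, adjusted p = 0.0168) with HEKsite2 and -0.71 (SE 0.17, adjusted p = 0.000984) with RNF2. RN7SL1 was at -0.38 (adjusted p = 0.00335) with HEKsite2 and -0.52 (adjusted p = 0.000117) with RNF2, and RN7SL2 at -0.36 (adjusted p = 0.00664) and -0.49 (adjusted p = 0.000308). RN7SK was at -0.45 (adjusted p = 0.000163) with HEKsite2 and -0.43 (adjusted p = 0.000281) with RNF2, and RMRP at -0.32 (adjusted p = 0.0181) and -0.34 (adjusted p = 0.0118). With all libraries RN7SL1 had been at 0.06 (adjusted p = 0.832) and RPPH1 at 0.10 (adjusted p = 0.796) with HEKsite2, so the sign of both turned. MALAT1 and NEAT1 were not called in either fit: without replicate 3, MALAT1 was at 0.07 with HEKsite2 and -0.02 with RNF2, and NEAT1 at -0.06 and -0.12. The part of the replicate 3 libraries in these differences rests on their removal alone, and what sets them apart was not tested. APOB and SERPINA1 were the 2 liver line markers that passed the filter on low counts. They had 0 counts in 20 and 25 of 33 libraries and reached at most 1.48 and 1.94 CPM. Genes so near 0 can pass this filter only through the libraries where they are high. Their calls as higher with Target-AID in both guides are therefore no separate support for a difference. Of the HEK293T-associated genes, 5 of 7 were called lower in each guide. Without replicate 3 both liver line markers were again called higher in each guide, and 4 of the 7 genes were lower with HEKsite2 and 5 with RNF2. The part of either in the levels of the short RNAs was not tested.

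**Figure D3:**
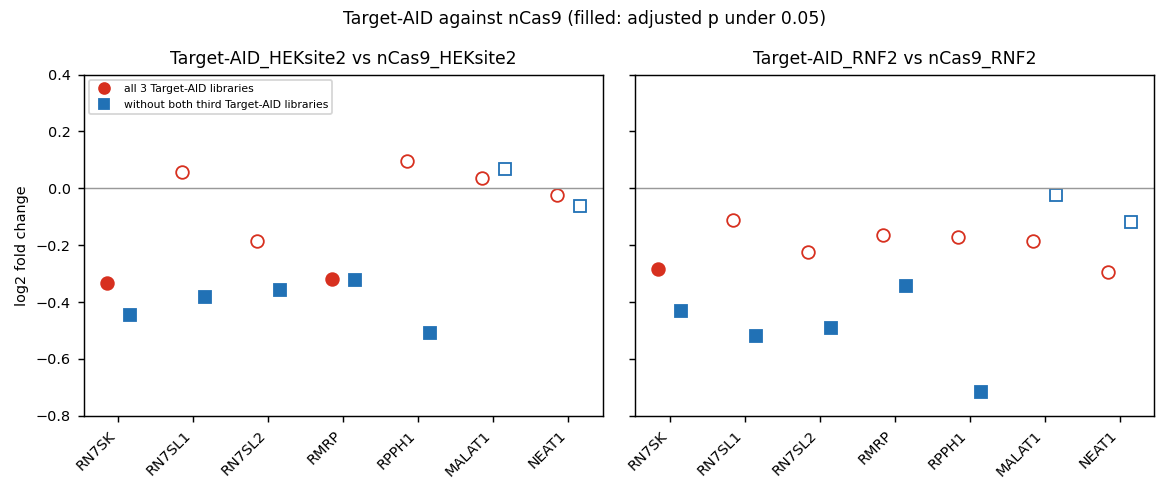
Log2 fold change of each RNA in Target-AID against nCas9 for each guide, with all libraries (circles) and without replicate 3 of Target-AID in both guides (squares); filled points have an adjusted p under 0.05. RPPH1 goes to -0.51 and -0.71 without these libraries, and MALAT1 and NEAT1 have unfilled symbols in both fits.

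MALAT1 was higher in HEKsite2 cells with SpACE and with ABEmax than with nCas9. It stood at 1259, 979 and 841 CPM with SpACE, against 617, 738 and 808 CPM with nCas9, so that every SpACE library was above every nCas9 library. The log2 fold change was 0.51 (SE 0.12, adjusted p = 0.00253). MALAT1 was the 1 RNA called, beside 21.0% of all genes, and the call was lost without replicate 1 of SpACE (log2 fold change 0.34, adjusted p = 0.0642). With ABEmax, MALAT1 stood at 1020, 1031 and 977 CPM, all above the nCas9 libraries and close to each other. The log2 fold change was 0.49 (SE 0.12, adjusted p = 0.00538), and the call was lost without replicate 1 of nCas9 (adjusted p = 0.0611).

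NEAT1, the other RNA called for ABEmax with HEKsite2 (2 RNAs, beside 15.9% of all genes), stood at 92.1, 135 and 112 CPM, against 59.5, 77.5 and 104 CPM with nCas9. The lowest ABEmax library lay below the highest nCas9 library, and the log2 fold change was 0.50 (SE 0.17, adjusted p = 0.0377). This call was lost under 6 of 14 alternatives: DESeq2, scaling by total counts, and the removal of replicate 2 or 3 of ABEmax or replicate 1 or 2 of nCas9 (adjusted p up to 0.277). With miniABEmax-V82G and HEKsite2, NEAT1 stood at 85.4, 107 and 120 CPM, for a log2 fold change of 0.37 (95% interval 0.04 to 0.71, adjusted p = 0.154), and MALAT1 at 811, 748 and 929 CPM, for 0.20 (95% interval -0.05 to 0.45).

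With the RNF2 guide neither long RNA was called for any editor. MALAT1 stood at 653, 807 and 809 CPM with SpACE and at 770, 871 and 1011 CPM with ABEmax, against 819, 745 and 910 CPM with nCas9. The log2 fold changes were -0.12 (95% interval -0.37 to 0.12) for SpACE and 0.10 (95% interval -0.15 to 0.35) for ABEmax. NEAT1 stood at 94.1, 113 and 146 CPM with ABEmax and at 130, 113 and 120 CPM with miniABEmax-V82G, against 86.3, 90.3 and 105 CPM with nCas9. All 3 miniABEmax-V82G libraries were above the nCas9 libraries, but the log2 fold changes, 0.33 for ABEmax and 0.37 for miniABEmax-V82G, had adjusted p = 0.199 and 0.141. SpACE with RNF2 had 60.6, 91.3 and 91.9 CPM of NEAT1, with a log2 fold change of -0.21 (95% interval -0.55 to 0.13).

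Whether an editor's difference from nCas9 depended on the guide was tested as an interaction, and 0 of 28 pairs of RNA and editor passed (edgeR), with 3 at an unadjusted p under 0.05. Over all genes this test called 0% for ABEmax, 0.0137% for miniABEmax-V82G, 0.164% for Target-AID and 0.0274% for SpACE. The shares at an unadjusted p under 0.05 were 4.08%, 6.72%, 8.66% and 7.41% of genes in the same order. The largest in size was that of RPPH1 with miniABEmax-V82G, at -0.66 on the log2 scale (95% interval -1.40 to 0.08). The smallest p was that of MALAT1 with SpACE, whose difference from nCas9 was lower with RNF2 than with HEKsite2. This interaction was -0.63 (95% interval -0.99 to -0.28), with an unadjusted p of 0.000778 and an adjusted p of 0.337 by edgeR. The rise of MALAT1 with SpACE and HEKsite2 is therefore not shown to be absent with RNF2. Between the guides themselves, with the same construct, 0 of 35 pairs were called, with 8 at an unadjusted p under 0.05. Over all genes this comparison called 2.07% for nCas9, 2.26% for ABEmax, 9.94% for miniABEmax-V82G, 0% for Target-AID and 0.0411% for SpACE, and at an unadjusted p under 0.05 it gave 15.2%, 14.5%, 26.0%, 3.91% and 6.51%. DESeq2 also called 0 RNAs in both kinds of comparison. Without the filter on low counts, however, 13 of 35 pairs were called between guides and 4 of 28 interactions, and with only the compared groups in the fit 9 of 35 pairs were called between guides. The shares of all genes called in these fits and by DESeq2 are not given here, so it is not shown whether the 7 RNAs stand out. With replicate 3 of Target-AID left out, edgeR called 0 of the 7 RNAs between the guides in Target-AID, beside 0.00676% of all genes, and 0 in its interaction, beside 0.101%. At an unadjusted p under 0.05, 0 RNAs passed in either, beside 3.46% and 7.00% of all genes. In miniABEmax-V82G the RNF2 group was lower for all 5 short RNAs, from -0.15 for RN7SK to -0.58 for RPPH1, and higher for MALAT1 and NEAT1, with adjusted p-values from 0.0942 for RN7SL2 to 0.419 for NEAT1.

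The groups of both guides were also averaged for each editor and for nCas9, a comparison added after the data were seen. No interaction was called, which does not show that the guides were alike. With ABEmax, MALAT1 was at 0.29 (SE 0.09, adjusted p = 0.00994) and NEAT1 at 0.41 (SE 0.12, adjusted p = 0.00708), 2 RNAs beside 28.4% of all genes, and neither call was lost under any of 20 alternatives. For MALAT1 this average joined 0.49 with HEKsite2 and 0.10 with RNF2. Its interaction was -0.38 (95% interval -0.74 to -0.03, unadjusted p = 0.0330 by edgeR), so the average came mostly from HEKsite2. With miniABEmax-V82G, NEAT1 was at 0.37 (SE 0.12, adjusted p = 0.0178), the 1 RNA called beside 23.6% of all genes, and this call was lost under DESeq2 and without replicate 1 of nCas9 or replicate 3 of miniABEmax-V82G, both with HEKsite2. MALAT1 was at 0.21 (adjusted p = 0.0819). With Target-AID, RN7SK was at -0.31 (SE 0.08, adjusted p = 0.000758), which held under all 21 alternatives, and RMRP at -0.24 (adjusted p = 0.0145), beside 52.1% of all genes. The call of RMRP was lost with only the compared groups in the fit and without replicate 2 of Target-AID with HEKsite2, replicate 1 or 2 of Target-AID with RNF2, or replicate 2 of nCas9 with RNF2. With SpACE edgeR called 0 RNAs, beside 31.8% of all genes, and DESeq2 also called 0. Without the filter edgeR called 1, and with only the compared groups in the fit it called 1. The shares of all genes called by DESeq2 and under these alternatives are not given here. MALAT1, at 0.19 (adjusted p = 0.0885), was the 1 RNA with an unadjusted p under 0.05 by edgeR, beside 41.0% of all genes. This average joined 0.51 with HEKsite2 and -0.12 with RNF2.

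Heat shock genes were higher with every editor than with nCas9. Their summed level was 11219 to 12552 CPM with Target-AID, 6206 to 6615 with SpACE, 5911 to 6060 with miniABEmax-V82G and 6117 to 6269 with ABEmax, all with HEKsite2, against 2436 to 2734 CPM with nCas9. All 7 listed genes were called higher than with nCas9 in 7 of the 8 comparisons and 6 in SpACE with RNF2, and all 7 with Target-AID in both guides also without its replicate 3. GFP cells had a summed level of 3924 to 3967 CPM, above that with nCas9. The part of heat shock in the levels of MALAT1 and NEAT1 was not tested.

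The comparison of nCas9 with GFP asks what the nickase and a guide add to GFP alone. With HEKsite2 edgeR and DESeq2 called 0 RNAs, and 0 had an unadjusted p under 0.05, beside 38.4% of all genes called and 45.8% at that unadjusted p. With RNF2, RMRP was lower and MALAT1 higher, 2 RNAs beside 41.5% of all genes. RMRP stood at 10754, 14518 and 11096 CPM with nCas9 and RNF2, against 16706, 14737 and 14998 CPM in GFP cells, with no overlap and a log2 fold change of -0.35 (SE 0.12, adjusted p = 0.0147). MALAT1 stood at 819, 745 and 910 CPM, against 637, 677 and 634 CPM in GFP cells, again with no overlap, and its log2 fold change was 0.34 (SE 0.12, adjusted p = 0.0226). Both calls depended on single libraries, and that of MALAT1 was also lost under DESeq2: RMRP was lost without replicate 1 or 3 of nCas9 or replicate 1 of GFP, and MALAT1 without replicate 3 of nCas9 or replicate 1 or 3 of GFP. NEAT1 was at 0.35 (adjusted p = 0.0929), with 86.3, 90.3 and 105 CPM against 68.2, 80.8 and 72.1 CPM in GFP cells.

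GFP cells had the lowest mean of both long RNAs among the 11 groups, 649 CPM for MALAT1 and 73.7 CPM for NEAT1, and the highest mean of RMRP, 15481 CPM, and of RN7SL2, 11785 CPM. Against GFP, MALAT1 was called higher with ABEmax (0.64 with HEKsite2 and 0.44 with RNF2), miniABEmax-V82G (0.35 and 0.55) and, with HEKsite2, SpACE (0.66). NEAT1 was called higher with ABEmax (0.62 with HEKsite2 and 0.68 with RNF2) and miniABEmax-V82G (0.50 and 0.71). Over all genes these comparisons with GFP called 46.8% and 49.6% for ABEmax, 39.8% and 47.0% for miniABEmax-V82G, 46.4% and 46.2% for Target-AID, and 36.6% and 37.9% for SpACE, with HEKsite2 and RNF2 in that order. SpACE with RNF2 had 0 RNAs called by edgeR, and RMRP alone at an unadjusted p under 0.05, beside 45.9% of all genes. RMRP was called lower than in GFP cells with Target-AID in both guides (-0.46 with HEKsite2 and -0.52 with RNF2) and with ABEmax and miniABEmax-V82G at RNF2 (-0.51 and -0.38). RN7SL2 was called lower with the RNF2 guide in ABEmax (-0.48), miniABEmax-V82G (-0.36) and Target-AID (-0.41). RN7SK was called lower with Target-AID (-0.31 with HEKsite2 and -0.34 with RNF2) and with ABEmax and RNF2 (-0.27). In all, 19 of 56 pairs were called, and all 8 comparisons share the 3 GFP libraries. When replicate 3 of Target-AID was left out, all 5 short RNAs were called lower than in GFP cells in both guides, beside 44.7% of all genes called with HEKsite2 and 46.0% with RNF2. They ranged from -0.42 for RN7SK to -0.49 for RN7SL2 and RPPH1 with HEKsite2, and from -0.48 for RN7SK to -0.70 for RMRP with RNF2. MALAT1 was then also called higher with RNF2 (0.32, adjusted p = 0.0211).

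The mRNAs of the proteins that hold RN7SK were read beside it, and no protein was measured for this or any other list. HEXIM1, which inhibits P-TEFb when bound to 7SK, stood at 28.2, 31.7 and 27.8 CPM with Target-AID and HEKsite2, against 68.1, 53.8 and 65.2 CPM with nCas9 and HEKsite2, with no overlap. Its log2 fold change was -1.09 (SE 0.10, adjusted p = 7.07e-12) with HEKsite2 and -0.86 (SE 0.10, adjusted p = 4.86e-09) with RNF2. HEXIM1 was called lower in all 8 comparisons of an editor with nCas9, from -0.28 (adjusted p = 0.0481) with ABEmax and RNF2, and by -0.62 and -0.52 with SpACE. MEPCE, which caps 7SK and stays bound to it, was at -0.42 and -0.29 with Target-AID, called in both guides. LARP7, which protects the 3′ end, was at -0.19 and -0.08 with Target-AID and was not called. MEPCE was also called lower with SpACE (-0.35 and -0.22) and with miniABEmax-V82G and HEKsite2 (-0.31). It was not called with miniABEmax-V82G and RNF2 (-0.15) or with ABEmax (-0.17 and -0.09). Without replicate 3 of Target-AID, LARP7 was called with HEKsite2 (-0.22, adjusted p = 0.0366) and not with RNF2 (-0.13), MEPCE was at -0.37 and -0.30 and HEXIM1 at -1.06 and -0.84. Of the 7 genes of the 7SK particle and P-TEFb, 2 rose and 3 fell with Target-AID and HEKsite2, and 0 rose and 3 fell with Target-AID and RNF2 and with SpACE in either guide. Without replicate 3 of Target-AID the counts were 2 higher and 4 lower with HEKsite2, and 2 higher and 3 lower with RNF2. The medians of the list were -0.19 with Target-AID and HEKsite2, against 0.00 over all genes tested, and -0.08 with RNF2, against -0.01.

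HEXIM1 differed between the controls in the other direction. With nCas9 it was higher than in GFP cells, at 1.06 with HEKsite2 and 0.87 with RNF2, and GFP cells had 31.5, 33.6 and 24.6 CPM. The HEXIM1 level with Target-AID was thus near that of GFP cells. HEXIM2, its close relative, was also higher with nCas9 than in GFP cells, at 1.00 and 1.11, while RN7SK itself was at 0.02 and -0.05 and was not called. Of the 7 genes, 5 rose and 0 fell in nCas9 with HEKsite2 against GFP, and 4 rose and 1 fell with RNF2.

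Genes for proteins of the signal recognition particle and its receptor gave 2 higher and 2 lower of 8 with Target-AID and HEKsite2. With RNF2 they gave 1 higher and 2 lower, and these counts were the same without replicate 3 of Target-AID. SRP9 and SRP14, which bind the Alu-like end of 7SL as a pair, were both lower, SRP14 at -0.43 and -0.33 and SRP9 at -0.35 and -0.18. Without replicate 3, SRP14 was at -0.40 and -0.39 and SRP9 at -0.35 and -0.21, all called. SRP9 was also called lower with ABEmax (-0.31 and -0.22), miniABEmax-V82G (-0.20 and -0.19) and SpACE with HEKsite2 (-0.28), and not with SpACE and RNF2 (-0.11). SRP14 stood at 85.2, 82.1 and 79.6 CPM with Target-AID and HEKsite2, against 126, 111 and 96.2 CPM with nCas9. SRP19, the gene of a protein that prepares 7SL for the protein SRP54, was higher with Target-AID and RNF2 (0.53) and with SpACE (0.40 and 0.56). It was also higher with ABEmax (0.40 and 0.42) and with miniABEmax-V82G (0.30 and 0.38). SRP19 was called with both guides without replicate 3 of Target-AID, at 0.41 with HEKsite2 and 0.53 with RNF2.

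Of the 10 tested genes for proteins of RNase P and RNase MRP, 3 rose and 3 fell with Target-AID and HEKsite2. With RNF2, 1 rose and 3 fell. Without replicate 3 of Target-AID these counts were 3 and 2 with HEKsite2, and 1 and 4 with RNF2. POP4 was at -0.36 and -0.41 and RPP14 at 0.29 and 0.23. POP1, the largest protein subunit of both enzymes, was called with HEKsite2 (0.25, adjusted p = 0.0244) and not with RNF2 (0.17, adjusted p = 0.133). Without replicate 3, POP4 was at -0.37 and -0.48, RPP14 at 0.32 and 0.28, and POP1 at 0.32 (adjusted p = 0.00344) with HEKsite2 and 0.09 (adjusted p = 0.476) with RNF2. Against GFP, nCas9 with RNF2 had 7 genes higher and 2 lower, among them RPP30 at 0.43 and POP1 at -0.35. In the same comparison RMRP was lower and RPPH1 was at 0.10, with an interval from -0.42 to 0.62.

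Genes for paraspeckle proteins were lower with Target-AID, 10 of 14 with HEKsite2 and 9 of 14 with RNF2. Among them 0 rose, while NEAT1 was not called. The median of the list was -0.29 with HEKsite2 and -0.21 with RNF2, against 0.00 and -0.01 over all genes. SFPQ was at -0.45 and -0.42, NONO at -0.20 and -0.16, and RBM14 at -0.64 and -0.61, the SFPQ and NONO proteins being core components that bind NEAT1. With ABEmax and HEKsite2, where NEAT1 rose, 0 of the 14 rose and 2 fell (TARDBP at -0.31 and NUDT21 at -0.18). With ABEmax and RNF2, 1 rose (EWSR1 at 0.24, adjusted p = 0.0111) and 0 fell. With SpACE 1 rose and 4 fell in each guide. The list counts with Target-AID were 10 and 9 also without replicate 3, with SFPQ at -0.42 and -0.40, NONO at -0.19 in both guides and RBM14 at -0.60 and -0.58.

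Genes for the proteins of nuclear speckles, where MALAT1 gathers, gave 4 higher and 2 lower of 16 with ABEmax and HEKsite2. With SpACE and HEKsite2 they gave 3 higher and 4 lower. CLK1, a kinase of splicing factors, was higher with ABEmax (0.64 and 0.60), miniABEmax-V82G (0.61 and 0.42) and Target-AID (0.64 and 0.51). The splicing factor genes SRSF1 and SRSF2 were lower with SpACE and HEKsite2 (-0.37 and -0.34) and with SpACE and RNF2 (-0.27 and -0.23). SRSF2 was also lower with Target-AID and RNF2 (-0.32), ABEmax and HEKsite2 (-0.23) and miniABEmax-V82G and RNF2 (-0.20). SRSF1 was also lower with Target-AID (-0.38) and miniABEmax-V82G (-0.28), both with HEKsite2. Values of both genes in the other comparisons of an editor with nCas9 are not given here. CLK1, SRSF1 and SRSF2 with Target-AID are given with all libraries only. Genes of the RNA polymerase III machinery gave 13 higher and 5 lower of 31 with Target-AID and HEKsite2, and 11 higher and 4 lower with RNF2, or 12 and 5, and 10 and 6, without replicate 3 of Target-AID. The median of this list was 0.12 and 0.14, against 0.00 and -0.01 over all genes. GTF3C3, a subunit of TFIIIC, was at 0.75 and 0.99 with Target-AID. It was also higher with ABEmax (0.39 in both guides), miniABEmax-V82G (0.48 and 0.47) and SpACE (0.64 and 0.74). BRF2 is the initiation factor that serves promoters lying before the gene, as those of RN7SK, RMRP and RPPH1 do. It was at 0.81 and 0.94 with Target-AID, and also higher with ABEmax (0.97 and 0.88) and with miniABEmax-V82G and HEKsite2 (0.71). GTF3C3 was at 0.77 and 0.99 and BRF2 at 0.75 and 0.83 without replicate 3 of Target-AID.

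Other small structured noncoding RNAs gave 2 higher and 6 lower of 34 tested with Target-AID and HEKsite2, 0 and 1 with RNF2, and 0 and 4 with ABEmax and RNF2. The Y RNA gene RNY1 was at -0.72 and -0.58 with Target-AID, and the vault RNA gene VTRNA1-2 at 2.28 with Target-AID and HEKsite2. Without replicate 3 of Target-AID the counts were 1 higher and 18 lower with HEKsite2, and 0 higher and 13 lower with RNF2. RNY1 was then at -0.74 and -0.83, called in both guides, and VTRNA1-2 at 2.03 with HEKsite2. Against GFP, nCas9 with RNF2 had 0 higher and 9 lower. Among 23 long nuclear noncoding RNAs, 4 rose and 2 fell with ABEmax in each guide, and 2 rose with Target-AID in each guide while 6 fell with HEKsite2 and 7 with RNF2, or 3 higher and 6 lower, and 2 higher and 7 lower, without replicate 3. SNHG3, a host gene of small nucleolar RNAs, was at -0.83 and -1.05 with Target-AID, or -0.82 and -1.01 without replicate 3.

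Of the 4 tested neighbouring genes of these RNA genes, 0 were called higher in any of the 8 comparisons of an editor with nCas9. Among them 0 were lower with ABEmax in either guide, with miniABEmax-V82G and HEKsite2 and with Target-AID and RNF2, and 1 was lower in each of the other comparisons. PARP2, the neighbour of RPPH1, was lower with SpACE (-0.27, adjusted p = 0.00554, with HEKsite2 and -0.24, adjusted p = 0.0187, with RNF2) and with miniABEmax-V82G and RNF2 (-0.22, adjusted p = 0.0405). With replicate 3 of Target-AID left out, 0 of the 4 were called with Target-AID in either guide. Against GFP, nCas9 had 3 of 4 higher and 0 lower with each guide, beside 38.4% of all genes called with HEKsite2 and 41.5% with RNF2, and PARP2 was among them at 0.47 and 0.50.

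The short RNAs moved together within groups. As a description over 33 libraries, which share for each point the library, its depth and its scaling, Pearson's r of the deviations of log2 CPM from the group mean was 0.95 between RN7SL1 and RPPH1, 0.85 between RN7SK and RN7SL2, 0.82 between RN7SK and RMRP and 0.82 between RN7SL1 and RN7SL2. Between RMRP and RPPH1, whose enzymes share proteins, it was 0.50. MALAT1 and NEAT1 had r = 0.64 with each other, and NEAT1 had r = -0.74 with RMRP. Without the 2 libraries farthest out, RN7SL1 and RPPH1 had r = 0.92, MALAT1 and NEAT1 0.57, and RMRP and NEAT1 -0.74.

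**Figure D4:**
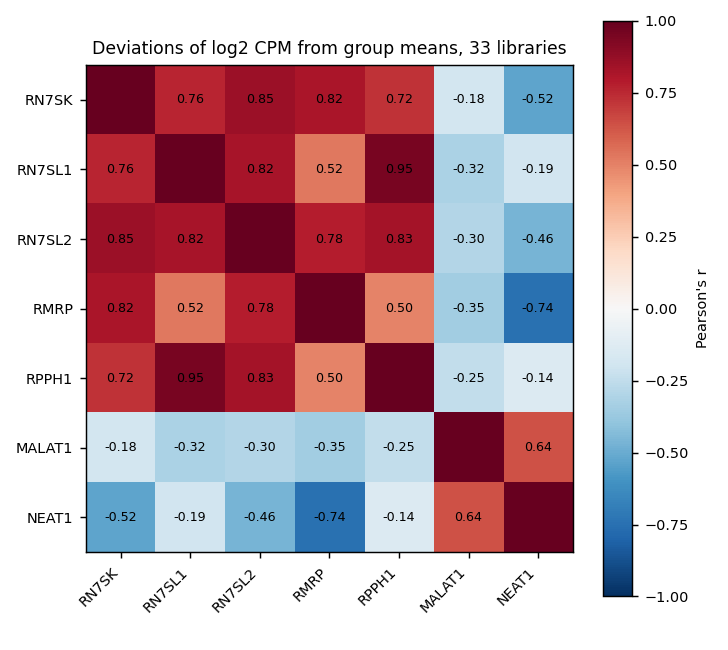
Pearson's r between the 7 RNAs, computed over 33 libraries from deviations of log2 CPM from the mean of the group, with the value in each cell. The 5 short RNAs form a block of positive values from 0.50 to 0.95, and MALAT1 and NEAT1 are negative with all of them and 0.64 with each other.

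Replicate 3 of Target-AID with HEKsite2 had the highest ratio of RPPH1 to RMRP and of RN7SL1 to RN7SL2 among the 33 libraries, and the replicate 3 libraries of Target-AID with RNF2 and of SpACE with RNF2 came next in both. RPPH1 over RMRP had a median of 0.702 over all libraries, and was 1.62 in replicate 3 of Target-AID with HEKsite2, 1.18 in replicate 3 of SpACE with RNF2 and 1.16 in replicate 3 of Target-AID with RNF2. RN7SL1 over RN7SL2 had a median of 1.69, and was 2.40 in replicate 3 of Target-AID with HEKsite2, 2.07 in that with RNF2 and 2.02 in replicate 3 of SpACE with RNF2. The ratio of RN7SK to RMRP stayed between 2.16 and 3.07 in all 33 libraries, and that of MALAT1 to NEAT1 between 6.91 and 13.3.

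**Figure D5:**
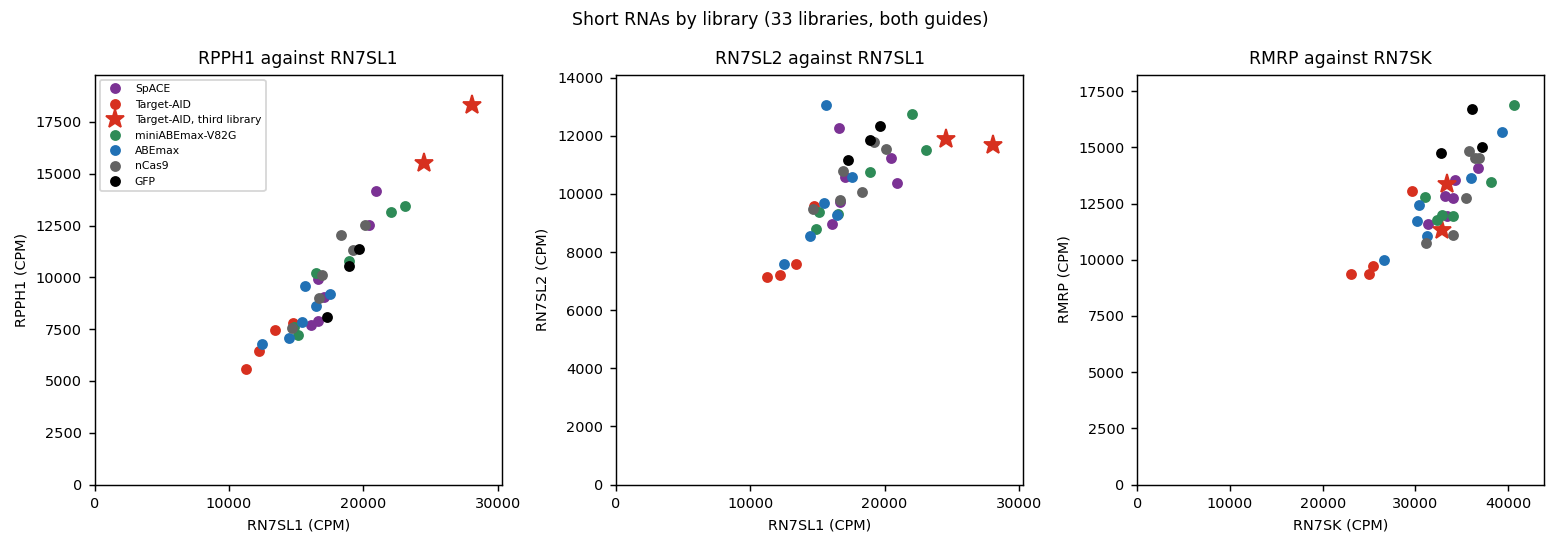
RPPH1 against RN7SL1, RN7SL2 against RN7SL1 and RMRP against RN7SK, in CPM, with 1 point per library and stars for replicate 3 of Target-AID. The stars lie at the upper end of RPPH1 and RN7SL1, at 18322 and 28071 CPM for HEKsite2, and inside the range of the other libraries for RMRP and RN7SK.

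The genes most like each RNA were found by Pearson's r of log2 CPM over the 33 libraries among 12597 genes, and are a description. RN7SK was most like SCARNA12 (0.87), ZNF124 (0.86) and NDUFB9 (0.85). RN7SL1 was most like the ribosomal protein genes RPS3A (0.93) and RPL9 (0.89), and RPPH1 like RPS3A (0.89) and GUK1 (0.89). For RN7SL2 the nearest were SNORA73A (0.91), ZNF124 (0.89) and SCARNA6 (0.89), and for RMRP SNORA73B (0.87), KARS (0.86) and EIF3I (0.86). MALAT1 was most like KIF1B, KMT2E-AS1 and AGO2, at 0.79 each, and NEAT1 like LINC00472 (0.86), SEC31B (0.83) and PPFIA4 (0.81). Small nucleolar and Cajal body RNAs thus stood nearest to 3 of the short RNAs and the ribosomal protein gene RPS3A to RN7SL1 and RPPH1.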

How the data were processed

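The authors deposited 1 table of raw counts, with a row per gene symbol and a column for each of 33 libraries. GRCh38 (hg38), Picard 2.7, GATK 3.8.1 and STAR are named in the submitters' processing notes, which give no roles. How reads were counted, on which annotation and strand and with what treatment of multiple positions, is not given in the sources used here. Libraries were made from total RNA with a stranded total RNA kit, per the labels' protocols.

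The 7 RNAs were matched by symbol. Genes were kept by filterByExpr (14613 of 26475), library sizes were scaled by TMM, and a single model took all 33 libraries with a mean for each group, leaving 22 residual degrees of freedom. The test was edgeR's two-sided quasi-likelihood F-test (edgeR 4.0.16, R 4.3.3) with Benjamini-Hochberg adjustment over all genes tested and a threshold of 0.05. CPM uses TMM-scaled library sizes, and log2 CPM a prior count of 2. The procedure was tested on simulated data. The lowest count of a member in any library was 491, for NEAT1, and the lowest of the short RNAs was 52210, so counting error is small beside the spread between libraries. No 2 replicates of a group agreed within sampling noise. Alternatives were RLE, upper quartile and total-count scaling, no filter, a fit with the replicate number as a block, a fit of the compared groups alone, DESeq2 1.42.0, GFP as control and each library left out. Added after the data were seen were the averages over guides and the fits without replicate 3 of Target-AID. Sequences and coordinates come from GENCODE 29 on GRCh38.

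From each list of partners the text names at most the 2 called genes with the smallest p in a comparison, and LARP7, MEPCE, HEXIM1, SRP9, SRP14, POP1, NONO and SFPQ. For likeness the 3 genes with the highest r were named, except where a gene is not reported here. The members, lists and tests were chosen with earlier results of these data known.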

Additional observations from a re-analysis of the deposited data

How the results depend on the processing

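Of 2548 values recomputed under an alternative, counts of called RNAs not included, 2394 kept their direction and side of the threshold, 36 lost a call, 115 gained a call and 3 turned round: RN7SL1 (-0.38) and RPPH1 (-0.51) with Target-AID and HEKsite2 without replicate 3 of Target-AID, and RMRP with miniABEmax-V82G averaged over guides with GFP as control (-0.24). RLE scaling and the replicate block changed no call of any of the 7 RNAs, and under the block the counts stayed at 2 for ABEmax, 0 for miniABEmax-V82G, 2 for Target-AID and 1 for SpACE with HEKsite2. Same-numbered libraries did not all deviate together, with r over 0.1 in 9 of 45 same-numbered pairs of compared groups. Of 33 libraries, 24 correlated best with their own number, a hint from the data and not the design.

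The count of called RNAs moved as follows. Without the filter it was 4 for miniABEmax-V82G with HEKsite2, 3 for SpACE with HEKsite2, 5 for ABEmax, 3 for miniABEmax-V82G and 4 for Target-AID with RNF2, 4 for nCas9 with RNF2 against GFP, 5, 2, 4 and 1 for ABEmax, miniABEmax-V82G, Target-AID and SpACE averaged over guides, 13 of 35 between guides and 4 of 28 interactions. With only the compared groups in the fit it was 2 for miniABEmax-V82G and 1 for Target-AID with HEKsite2, 5, 5 and 0 for ABEmax, miniABEmax-V82G and Target-AID with RNF2, 4 for nCas9 with RNF2 against GFP, 4, 2, 1 and 1 for the averages in the same order and 9 of 35 between guides. With GFP as control it was 2 for miniABEmax-V82G with HEKsite2, 5, 4 and 3 for ABEmax, miniABEmax-V82G and Target-AID with RNF2, and 4, 3 and 2 for the averages of ABEmax, miniABEmax-V82G and SpACE. DESeq2 gave 1 for ABEmax and 1 for Target-AID with HEKsite2, 0 for Target-AID with RNF2, 1 for nCas9 with RNF2 against GFP and 0 for miniABEmax-V82G averaged. Scaling by total counts gave 1 for ABEmax with HEKsite2. Without replicate 3 of Target-AID it was 5 with HEKsite2, 5 with RNF2 and 5 averaged. Shares of all genes called are given above for GFP as control with single guides and for the fits without replicate 3. For the other alternatives they are not given, so those counts have no reference. The cause was not tested for any of these counts.

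With 1 library left out, the count ran from 0 to 2 for ABEmax, 0 to 1 for miniABEmax-V82G, 0 to 2 for Target-AID and 0 to 2 for SpACE with HEKsite2. It ran from 0 to 5 for Target-AID with RNF2 and from 0 to 2 for nCas9 with RNF2 against GFP, and stayed at 0 for the other editors with RNF2, for nCas9 with HEKsite2 against GFP, between guides and in the interactions. For the averages it stayed at 2 for ABEmax and ran from 0 to 2 for miniABEmax-V82G, 1 to 3 for Target-AID and 0 to 1 for SpACE. Shares of all genes called with 1 library left out are not given here either.

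These libraries give relative levels, so a common change of all RNAs would not be seen. Reads shared with near copies limit RN7SK, RN7SL1 and RN7SL2. Depth did not limit the 7 RNAs, but the SE of a log2 fold change against nCas9 was 0.11 for RN7SK and 0.26 for RPPH1. These SEs come from 3 libraries per group and a spread shared over all groups. That spread includes the replicate 3 libraries of Target-AID, and the SE of RPPH1 with Target-AID was smaller without them.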
